A study of Saccharomyces cerevisiae with 6 samples.

Results

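The step described here is the difference in transcript level between 5 and 10 min of aeration in Saccharomyces cerevisiae, baker's yeast, that had been growing without oxygen. For each gene it is the log2 ratio of the 10 min sample minus the log2 ratio of the 5 min sample, so that a step of 1 is a 2-fold higher level at 10 min and a step of -1 a 2-fold lower one. A gene was included where the deposited table gave a value at both times, with features of the same gene averaged. This held for 6018 of 6470 genes or unnamed features, of which 5487 carried a gene symbol and 531 did not. Of the other 452, 97 had a value only at 5 min, 73 only at 10 min and 282 at neither time.

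The series measured gene expression with 2-colour arrays in 6 samples. The pool sample is RNA from anaerobic cultures, taken at 0 min, hybridised against itself. The other 5 are cells aerated for 5, 10, 20, 60 or 120 min, 1 sample a time from separate flasks, each hybridised against that pool as a dye-swap pair. All cultures, the pool's included, had grown in nitrogen-purged, dithionite-reduced sealed bottles of synthetic complete medium with added ergosterol, unsaturated fatty acids and amino acids, and were in exponential phase. The strain is not named in the labels used here. The pool was common to both times and cancels in the step. The direction of each ratio, aerated over pool, is likely from the titles and not settled by the labels, which list both dyes for both channels. The log base was read from the values. The free-text description filed with the 5 min sample is the same as for the self-hybridisation, and its group follows the fields that name its RNA. The extraction text filed with the 60 min sample speaks of 20 min, and its group too follows the fields that name its RNA. With 1 sample on each side the step has no replicate and no test, and flask and time cannot be told apart. In bulk RNA, fewer cells carrying a transcript and less of it per cell cannot be told apart either.

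Yeast grown without oxygen makes a set of hypoxic proteins, among them cell wall mannoproteins of the DAN and TIR family, sterol uptake proteins and the hypoxic forms of respiratory subunits. Oxygen allows heme and sterol synthesis, and heme activates Hap1, which in turn promotes genes of respiration and ROX1, the repressor of many hypoxic genes. Returning oxygen also exposes the cells to peroxide and superoxide and alters the redox state of copper and iron, which have their own regulons.

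Of 6018 genes, 124 were at least 2-fold higher at 10 min than at 5 min (2.06%) and 141 were at least 2-fold lower (2.34%), together 265 genes (4.4%). Gene symbols were present for 114 of the higher and 114 of the lower ones. The step was at least 4-fold for 19 higher and 15 lower genes, and at least 8-fold for 8 higher and 6 lower ones. Most genes stood close to where they had been, with 80.3% of steps within 0.5 of 0. The median step was 0.01 and the median absolute deviation 0.227. A step above 0 was found in 51.2% of genes and one below 0 in 48.8%. These shares, and those past 2-fold, are the background for the counts in gene lists below. From 10 to 20 min, over 6081 genes, 94 were at least 2-fold higher and 76 at least 2-fold lower (2.8%), so fewer genes were past 2-fold between 10 and 20 min than between 5 and 10 min. That difference in share was not tested. In the self-hybridisation, where no difference in RNA exists, 132 of the 3505 genes with a step and a value there (3.77%) were at least 2-fold from 0. That is 1 ratio, while the step is the difference of 2. The part of such spread in the 265 genes was not tested. As a measure of spread within a sample, 16 genes were each carried on a pair of features. Their steps differed by a median of 0.20 between the features, and by 0.5 or less in 15 of the 16. The remaining pair, of TPH3, was the only one with a feature past 2-fold, and its steps were -1.04 and -0.08. Steps of paired features had a Pearson correlation of 0.37. The pairs thus do not show how well a 2-fold step repeats.

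**Figure D1:**
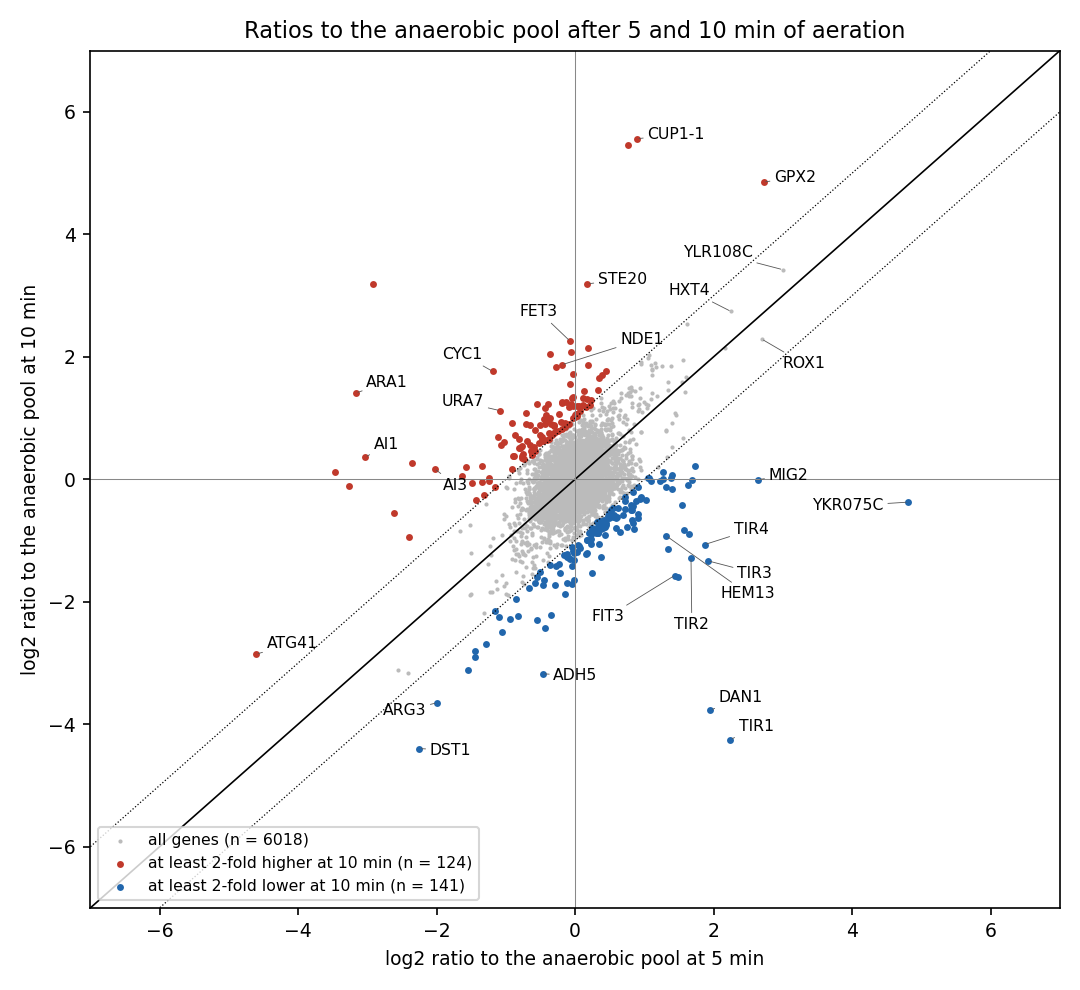
Log2 ratio to the anaerobic pool at 5 min (horizontal axis) and at 10 min (vertical axis) for 6018 genes, with 124 genes at least 2-fold higher at 10 min in red and 141 at least 2-fold lower in blue. The dotted lines mark a 2-fold step. TIR1 and DAN1 sit at the lower right, above the pool at 5 min and below it at 10 min, and CUP1-1 sits at the top.

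The 5 min sample held 65 genes at least 2-fold above the pool and 57 at least 2-fold below it, against 132 above and 137 below at 10 min. Genes past 2-fold at both times on the same side numbered 30 above and 25 below. Among those above at both times were ROX1, the hexose transporter genes HXT2, HXT3, HXT4 and HXT7, the aldehyde dehydrogenase genes ALD4 and ALD6, and SRX1, the sulfiredoxin gene. Among those below at both times were the arginine synthesis genes ARG3, ARG4 and CPA1, the methionine genes MET2 and MET28, and SUL2, a sulfate permease gene. These examples were chosen after the values were seen. A further 12 genes crossed the pool by 2-fold on each side: 8 were above it at 5 min and below it at 10 min, and 4 were below it and then above it.

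The 8 genes that went from above to below were DAN1, TIR1, TIR2, TIR3, TIR4, FIT3, YML100W-A and 1 feature with no symbol. TIR1, a cell wall mannoprotein gene and the lowest step of all, had log2 ratios of 2.24, -4.25, -2.83, -4.46 and -5.97 from 5 to 120 min, with -0.11 in the self-hybridisation. DAN1, a mannoprotein gene known for anaerobic expression, had 1.96, -3.77, -3.51, -2.08 and -3.42 at the same times, with -0.08 in the self-hybridisation. The 5 min sample stood above the pool and all 4 later samples below it for both genes. The step was -6.50 for TIR1, a 90.2-fold lower level at 10 min, and -5.73 for DAN1, a 53.0-fold lower level.

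The smaller steps of the family followed the same course. TIR3 had log2 ratios of 1.92, -1.33, -2.07, -1.27 and -2.63 from 5 to 120 min and a step of -3.25. TIR2 had 1.67, -1.28, -1.23, -1.60 and -1.33, with -0.49 in the self-hybridisation and a step of -2.96. TIR4 had 1.87, -1.07, -1.24, -0.74 and -1.23 and a step of -2.94. In these genes too the 5 min sample was the only aerated sample above the pool. Of the 7 measured members of the DAN and TIR list, 5 were at least 2-fold lower at 10 min, against 2.34% of all genes, and the list's median step was -2.96 against 0.01 over all genes. The remaining members did not share this: DAN4 stood at 0.12 and 0.46 at 5 and 10 min, and PAU23, for which the reference lists a DAN name as a synonym, at 0.26 and -0.07. Among 13 other cell wall mannoprotein genes none was past 2-fold in either direction and the median step was -0.20. PST1 and TIP1, the members furthest from 0, had steps of -0.97 and -0.69, and PST1 was at -1.06 with both columns scaled to the same spread.

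**Figure D2:**
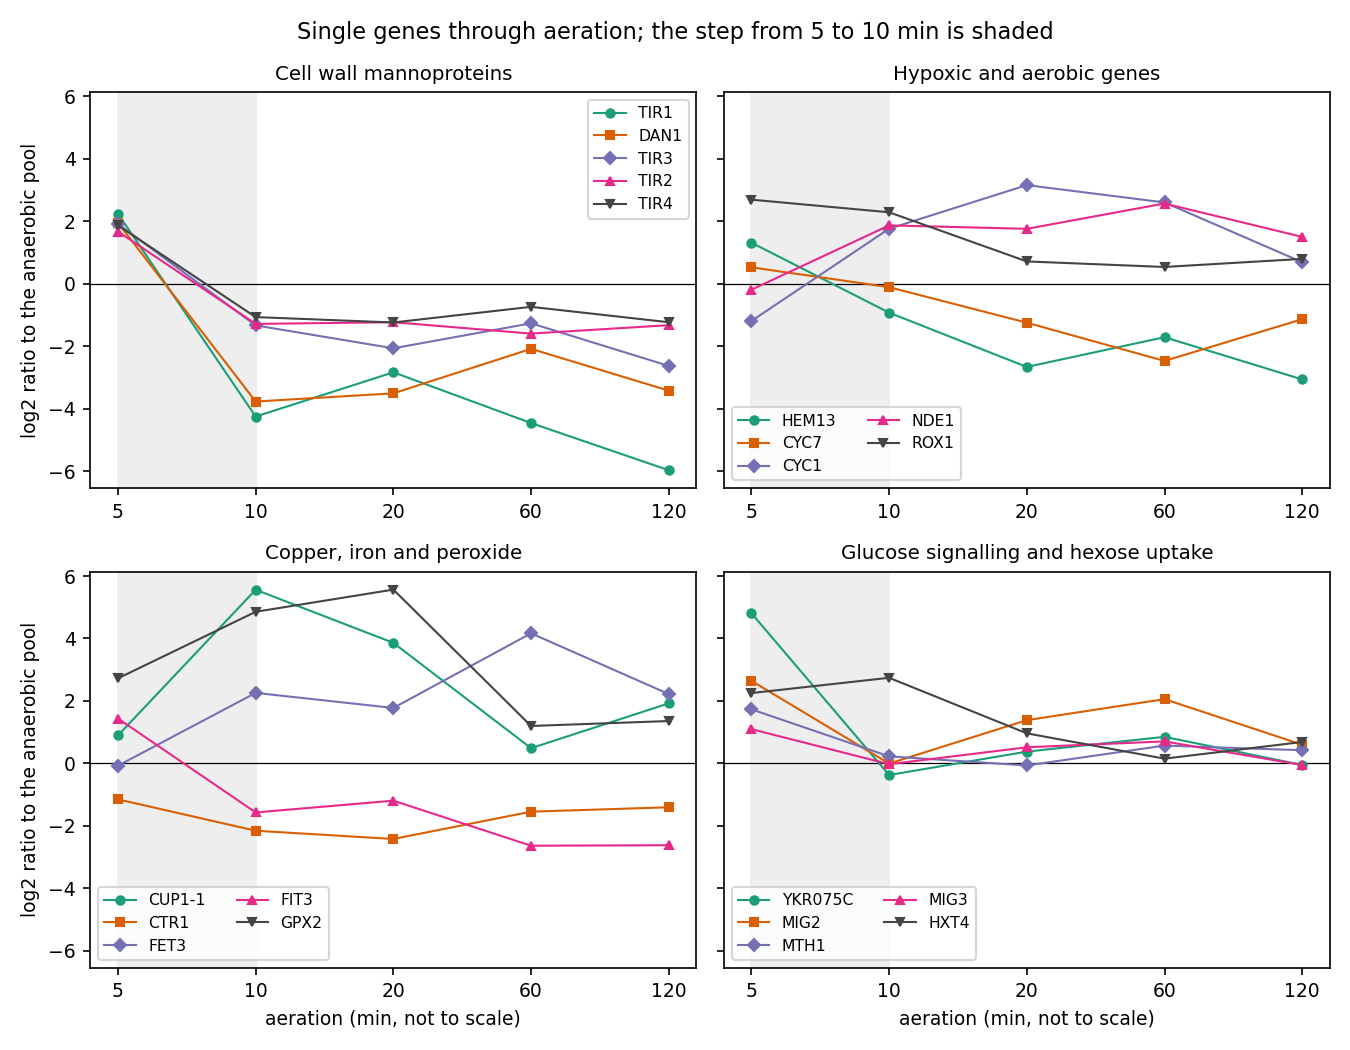
Log2 ratio to the anaerobic pool (vertical axis) at 5, 10, 20, 60 and 120 min of aeration (horizontal axis, not to scale) for single genes, 1 sample a time, with the step from 5 to 10 min shaded. The 5 mannoprotein genes are above the pool at 5 min and below it at every later time, CYC1 takes the opposite course, and CUP1-1 is highest at 10 min.

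Seripauperin genes are the PAU family of small cell wall proteins made without oxygen. Of 18 measured members 4 were at least 2-fold lower, against 2.34% of all genes, and none 2-fold higher, 16 had a step below 0, against 48.8%, and the median step was -0.68. PAU5 had log2 ratios of 1.57, -0.83, -1.38, -1.40 and -1.20 from 5 to 120 min, with -0.03 in the self-hybridisation. PAU3 had 1.55, -0.42, -0.63, -0.53 and -1.11. Both were above the pool at 5 min and below it in all 4 later samples, and their steps were -2.40 and -1.96. PAU22 and PAU6 had steps of -1.58 and -1.55. Members of this family are nearly identical in sequence, so that an array may not separate them and the members do not count as independent genes.

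HES1, which encodes an oxysterol-binding protein, was at 1.65, -0.90, -0.36, -0.57 and -1.17 from 5 to 120 min, a step of -2.54. It was the only member of 10 sterol uptake and hypoxic sterol genes past 2-fold, and the list's median step was -0.49. Its ratio was above the pool only at 5 min. In ergosterol synthesis 21 of 25 genes had a step below 0, against 48.8% of all genes, with a median of -0.50. Only ERG24, a sterol reductase gene, at -1.20, and CYB5, the cytochrome b5 gene, at -1.06, were past 2-fold. ERG24 had a ratio of -1.70 in the self-hybridisation. Fatty acid synthesis genes had a median step of 0.21 with none of 14 past 2-fold. ELO1, a fatty acid elongase gene, and OLE1, the oxygen-dependent desaturase gene, had steps of 0.64 and 0.45.

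Among 8 measured genes listed here as hypoxic Rox1 targets, HEM13 alone was past 2-fold. This coproporphyrinogen oxidase gene, an oxygen-using step of heme synthesis, was at 1.32, -0.92, -2.66, -1.71 and -3.06 from 5 to 120 min, a step of -2.24. CYC7, the hypoxic cytochrome c gene, went from 0.53 to -0.11, HMG2, an HMG-CoA reductase gene, from 0.38 to -0.24, and COX5B, the hypoxic form of a cytochrome oxidase subunit, from 0.29 to -0.02. ANB1, the hypoxic form of translation factor eIF5A, had a step of -0.25, AAC3, an ADP/ATP carrier gene, of -0.00, PLN1 of 0.15 and CPR1, a cyclophilin gene, of 0.23. CPR1 entered the list by its symbol, and whether this cyclophilin gene is a Rox1 target was not checked. The median step of the list, CPR1 included, was -0.28, far nearer 0 than that of the mannoprotein list. ROX1 itself was at 2.69, 2.29, 0.72, 0.54 and 0.80 from 5 to 120 min. It was thus already more than 2-fold above the pool at 5 min, and its step was -0.40. With both columns scaled to the same spread the step was -1.12.

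None of 13 oxygen and heme regulators had a step past 2-fold. HAP4, the activating subunit of the Hap complex that promotes respiration genes, came nearest, with 1.19, 0.20, -0.05, -1.16 and 0.85 from 5 to 120 min, a step of -0.997. With both columns scaled to the same spread it was at -1.20, so that HAP4 and ROX1 were then past 2-fold. UPC2, the sterol regulator, had a step of -0.61, HAP5 of -0.40, MOT3, a further repressor of hypoxic genes, of -0.36, MGA2 of -0.35, SPT23 of -0.30 and HAP1 of -0.29. Steps of ECM22, HAP2, CYC8, HAP3 and TUP1 were -0.02, -0.01, 0.10, 0.18 and 0.23. In heme synthesis no gene apart from HEM13 was past 2-fold. HEM14 went from 0.35 at 5 min to -0.43 at 10 min, a step of -0.78, and was below the pool at each later time. HEM2 had a step of -0.40. Steps of HEM1, HEM15, COX15, HEM12, HEM3, COX10, HEM4 and HMX1, the last a heme oxygenase gene, lay between -0.16 and 0.31.

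CYC1, the aerobic cytochrome c gene, was at -1.19, 1.76, 3.16, 2.61 and 0.69 from 5 to 120 min, with -0.66 in the self-hybridisation. Only the 5 min sample was below the pool, and the step of 2.96 is a 7.76-fold higher level. It was the only one of 11 heme-dependent aerobic genes past 2-fold, against 2.06% of all genes. The list's median step was 0.67, with 8 of 11 above 0, against 51.2% of all genes. CYB2, cytochrome b2, had a step of 0.91, PET9, the main ADP/ATP carrier, of 0.76, CYT1, cytochrome c1, of 0.73, COX5A, the aerobic counterpart of COX5B, of 0.71, CTT1, cytosolic catalase, of 0.67, and HYP2, the aerobic counterpart of ANB1, of 0.57. CTA1, the peroxisomal catalase gene, HMG1 and YHB1, the flavohemoglobin gene, had steps of 0.20, -0.11 and -0.66.

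In the respiratory chain 25 of 28 genes had a step above 0, against 51.2% of all genes, with a median of 0.42, and 4 were at least 2-fold higher, against 2.06%. NDE1, the external NADH dehydrogenase gene, had log2 ratios of -0.19, 1.87, 1.76, 2.57 and 1.50 from 5 to 120 min and a step of 2.06. COX7 and COX12, cytochrome oxidase subunit genes, went from -0.60 to 0.53 and from -0.58 to 0.47. COX6, a subunit of the same enzyme, was the exception, at 0.83 and then -0.44, a step of -1.27. The ATP synthase list had a median step of 0.42 with 14 of 16 above 0, against 51.2% of all genes, and none past 2-fold. ATP14 and STF1 at its ends had steps of 0.73 and -0.68. The medians of ATP synthase genes were 0.03 at 5 min and 0.45 at 10 min, and -0.48 in the self-hybridisation, where no difference in RNA exists. The part of that offset in the step was not tested. In the tricarboxylic acid and glyoxylate cycle the median step was 0.03, and MLS1, malate synthase, and ICL1, isocitrate lyase, of the glyoxylate cycle, had steps of -1.22 and -1.03. ICL1 was at -2.20 in the self-hybridisation, further from 0 than its step, and MLS1 had no value there.

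Transcripts of the mitochondrial genome formed a group chosen after the values were seen, and its count is a description only. Of 46 listed features 18 were measured at both times. A step above 0 was found in 16 of the 18, against 51.2% of all genes. At least 2-fold higher at 10 min were 11, against 2.06%. Their median log2 ratios were -1.01, 0.18, 0.54, -0.53 and 0.46 at 5, 10, 20, 60 and 120 min. The medians were below the pool at 5 and 60 min and above it at the other times. AI1, a reading frame inside an intron of the mitochondrial COX1 gene, was at -3.03, 0.36, 1.06, -0.69 and 0.82, a step of 3.39. AI3 and AI2, of the same gene, had steps of 2.20 and 1.78, and SCEI, the intron endonuclease reading frame, and Q0255 had steps of 2.63 and 2.06. OLI1, an ATP synthase subunit gene, went from -2.40 to -0.95. COX1 went from -0.76 to 0.54 and COB, cytochrome b, from -0.89 to 0.37, while COX3 and VAR1 had steps of -0.00 and -0.19. Only 1 of the 18 had a value in the self-hybridisation, and several of these features lie in overlapping transcripts of 1 gene.

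**Figure D3:**
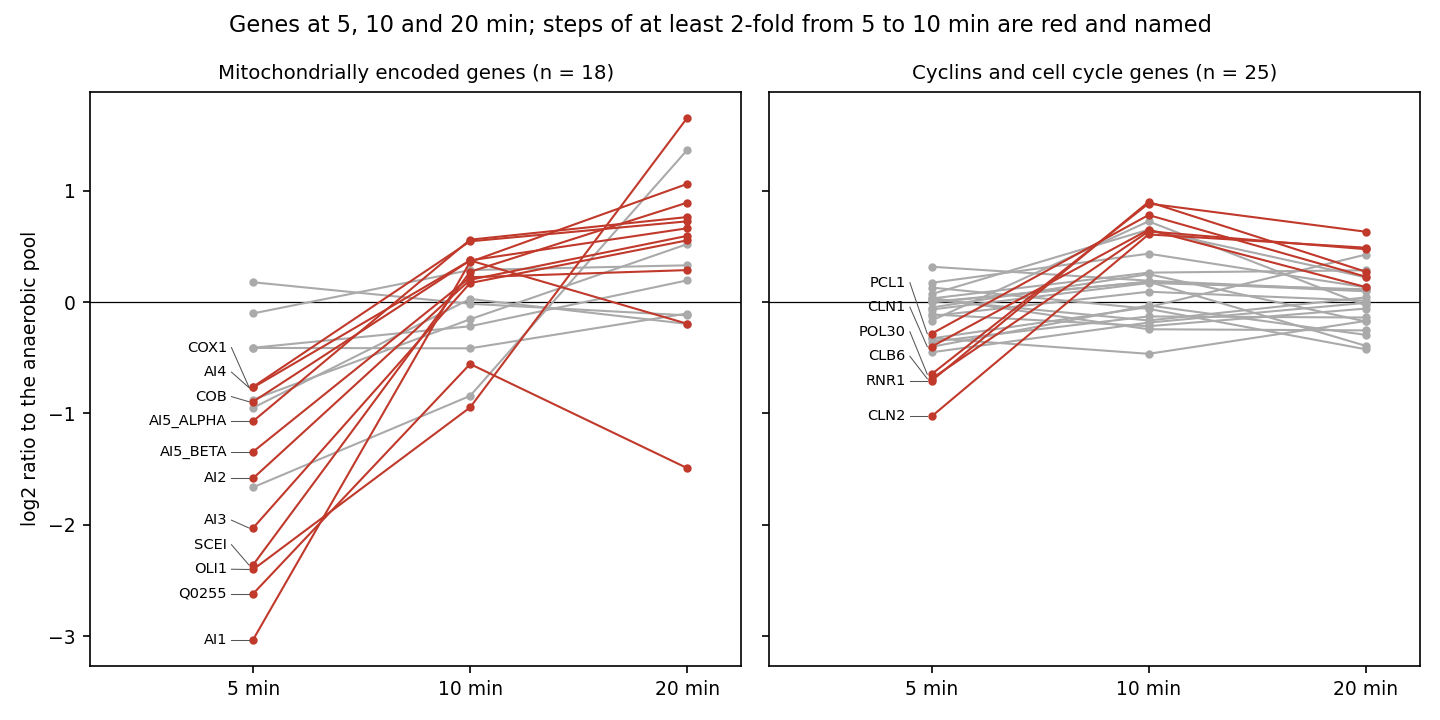
Log2 ratio to the anaerobic pool (vertical axis) at 5, 10 and 20 min (horizontal axis) for 18 mitochondrially encoded features and 25 cyclin and cell cycle genes, 1 line a gene. Red lines are the 11 and 6 genes at least 2-fold higher at 10 min than at 5 min, and their names stand beside the 5 min values.

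The highest steps among genes with a symbol were those of CUP1-2 and CUP1-1, repeated copies of the copper metallothionein gene that an array cannot separate. CUP1-1 was at 0.89, 5.56, 3.86, 0.49 and 1.92 from 5 to 120 min, with -0.38 in the self-hybridisation. CUP1-2 was at 0.77, 5.47, 3.59, 0.04 and 1.96. The 10 min sample was the highest of all, with a 25.4-fold and a 25.9-fold higher level than at 5 min. YHR054C, a reading frame of the same repeat that was named after its values were seen, went from 0.19 to 1.86. CTR1, the high-affinity copper transporter gene, was at -1.15, -2.16, -2.42, -1.55 and -1.41 and had a step of -1.01, or -0.54 with both columns scaled to the same spread. The remaining 11 of 14 copper genes were within 2-fold, and the list's median step was 0.11.

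In the iron list 1 gene was past 2-fold in each direction. FET3, the multicopper oxidase of iron uptake, was at -0.07, 2.26, 1.78, 4.17 and 2.22 from 5 to 120 min, a step of 2.33. FIT3, a cell wall mannoprotein that retains siderophore iron, took the opposite course, with 1.44, -1.57, -1.19, -2.64 and -2.62 and a step of -3.01. These were the only 2 of 28 iron genes past 2-fold, against 4.4% of all genes, and the list's median step was -0.03. Of 11 zinc genes 2 were 2-fold higher and 1 was 2-fold lower, against 2.06% and 2.34% of all genes. ZRT1, a zinc transporter gene, went from -1.64 to 0.06 and ZAP1, the zinc regulator, from -1.24 to 0.03, with steps of 1.70 and 1.27. IZH4, a membrane protein of zinc homeostasis, had a step of -1.15, and the median of 11 genes was 0.17.

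Genes of the oxidant response differed little as lists and strongly in single members. GPX2, a glutathione peroxidase gene, was at 2.72, 4.85, 5.57, 1.20 and 1.36 from 5 to 120 min. It was 2-fold above the pool at both times and its step was 2.13, or 1.07 with both columns scaled to the same spread. TSA2, a stress-induced peroxiredoxin gene, was at 1.64, -0.09, 0.53, -0.21 and -0.57, and its step was -1.73. Of 28 antioxidant genes these 2 alone were past 2-fold, and the median step was 0.01. Among 24 genes of the Yap1-type oxidant and drug response none was past 2-fold, and the members furthest from 0 were YAP1, the peroxide-sensing regulator, and GRE2, a reductase gene, with steps of 0.90 and 0.58.

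YKR075C and the glucose signalling genes MIG2, MTH1 and MIG3 were more than 2-fold above the pool at 5 min and within 2-fold of it at 10 min. YKR075C, an uncharacterised gene, was at 4.81 at 5 min, the highest gene of that sample, and at -0.37, 0.38, 0.85 and -0.05 at 10, 20, 60 and 120 min. MIG2, a repressor of glucose-repressed genes, was at 2.64, -0.01, 1.38, 2.06 and 0.60, with 0.05 in the self-hybridisation. Their steps were -5.18, a 36.4-fold lower level, and -2.65. The course of MIG2 differed from that of YKR075C in that its ratio was above 1 again at 20 and 60 min. MTH1, a repressor of hexose transporter genes, went from 1.73 to 0.22 and MIG3, a relative of MIG2, from 1.10 to -0.03. The hexose transporter genes HXT4 and HXT2, named after their values were seen, did not follow: HXT4 was at 2.25 and then 2.74, and HXT2 at 1.25 and then 1.85. ADR1, the activator of glucose-repressed genes, had a step of 1.05, or 0.90 with both columns scaled to the same spread. Of 24 genes of hexose transport and glucose signalling 3 were 2-fold lower and 1 was 2-fold higher, against 2.34% and 2.06% of all genes. The median of these 24 was -0.12, and 15 of them had a step below 0, against 48.8% of all genes. In glycolysis and fermentation ADH5, an alcohol dehydrogenase gene, was the exception among 34 genes, with -0.46, -3.18, -3.33, -2.02 and -0.82 from 5 to 120 min and a step of -2.71, while the list's median was -0.00.

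Ribosome biogenesis was the list with the most genes past 2-fold. Of 87 measured members 22 were at least 2-fold higher at 10 min, against 2.06% of all genes, and 1 was 2-fold lower. A step above 0 was found in 80 of the 87, against 51.2% of all genes, and the median step was 0.56. The list's median log2 ratios were 0.01, 0.51, 0.84, 0.67 and 0.61 from 5 to 120 min, with -0.15 in the self-hybridisation. The 5 min sample stood at the pool and all later ones above it. REI1, of late large-subunit maturation, was at 0.19, 2.15, 1.91, 2.10 and 1.15. NOG2, a GTPase of nuclear large-subunit maturation, was at -0.07, 1.56, 2.38, 1.92 and 1.07. Their steps were 1.96 and 1.63, and those of UTP9 and NOP14, of small-subunit processing, were 1.75 and 1.60, with BRX1 at 1.48 and NOP53 at 1.44. NOP2, an rRNA methyltransferase gene, was the exception, at 0.43 and then -0.92.

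RNA polymerase I and III genes had a median step of 0.37, with 27 of 33 above 0, against 51.2% of all genes. At least 2-fold higher were 4, against 2.06%. These were BRF1, a polymerase III initiation factor gene, at 1.39, and the subunit genes RPC11, RPA34 and RPA12 at 1.13, 1.01 and 1.00. RPA34 and RPA12 were at 0.93 and 0.86 with both columns scaled to the same spread. Translation factor genes had a median of 0.34, with 33 of 39 above 0, against 51.2% of all genes. RPG1, the large subunit of initiation factor eIF3, was at -0.06, 2.08, 1.61, 0.14 and 0.25, a step of 2.14. SYO1, which escorts ribosomal proteins into the nucleus and lies outside these lists, had a step of 1.80. Ribosomal proteins themselves differed from this: the 135 cytosolic genes had a median step of 0.09 and median log2 ratios of -0.42 at 5 min and -0.35 at 10 min. Of these, RPL22B and RPS27A alone were past 2-fold, at 1.40 and 1.11, against 4.4% of all genes. They were at -0.51 and -0.52 at 5 min and at -0.56 and -0.42 in the self-hybridisation. Mitochondrial ribosomal protein genes had a median of 0.19, with RSM28 alone of 69 past 2-fold, against 4.4% of all genes.

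**Figure D4:**
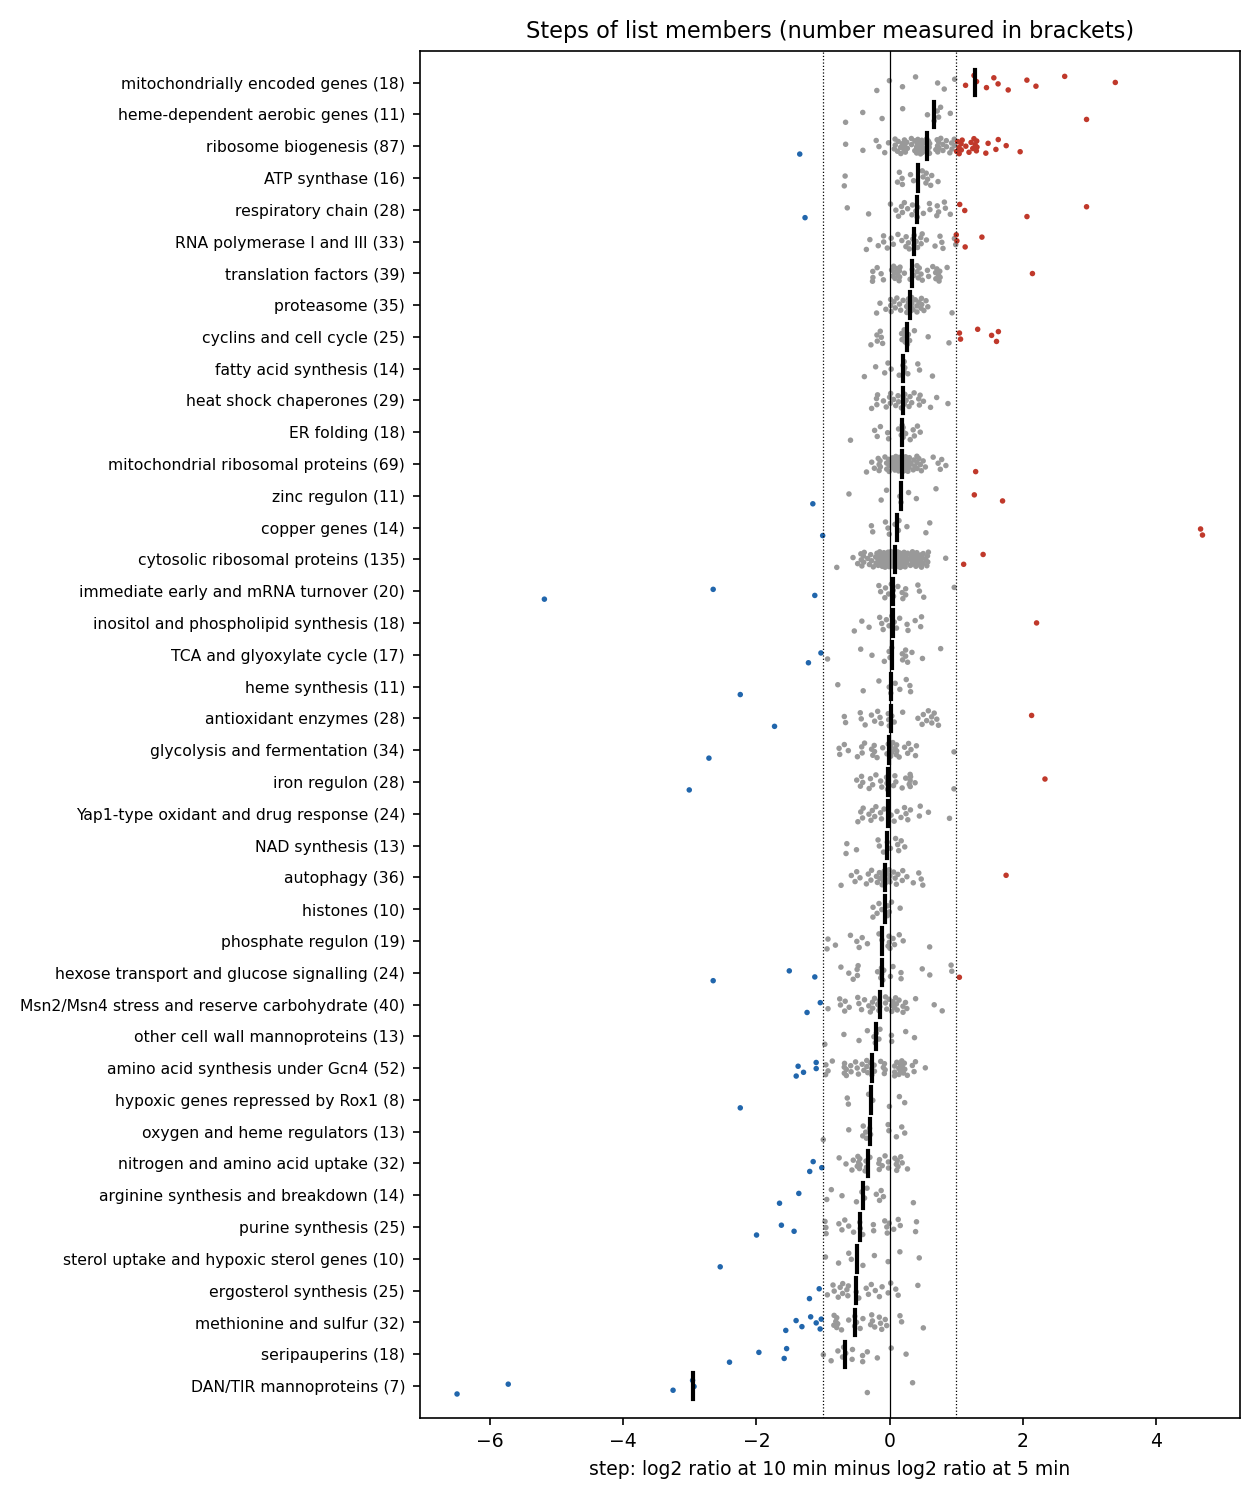
Step from 5 to 10 min (horizontal axis, log2 ratio at 10 min minus that at 5 min) for each measured member of the gene lists, ordered by the list's median (black bar), with the number measured in brackets. Steps of at least 2-fold are red where higher and blue where lower at 10 min. Mitochondrially encoded, heme-dependent aerobic and ribosome biogenesis genes have the highest medians and the DAN and TIR mannoproteins, at -2.96, the lowest.

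CLN2, a G1 cyclin gene, was at -1.03, 0.61, 0.49, 0.92 and 0.27 from 5 to 120 min. RNR1, the large subunit of ribonucleotide reductase, was at -0.71, 0.90, 0.27, 1.12 and 0.76. For both, the 5 min sample was the only one below the pool. Steps were 1.63 for CLN2, 1.60 for RNR1, 1.53 for POL30, the sliding clamp of replication, 1.32 for CLB6, an S-phase cyclin, 1.06 for PCL1 and 1.05 for CLN1, both active in G1. These 6 of 25 genes were 2-fold higher, against 2.06% of all genes, none was 2-fold lower, and the median step was 0.26. Histone genes, which are transcribed in S phase, had a median of -0.07 with none of 10 past 2-fold.

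In the methionine and sulfur list 29 of 32 genes had a step below 0, against 48.8% of all genes, and 7 were 2-fold lower, against 2.34%, with a median of -0.52. MUP3, a methionine permease gene, was at -1.55, -3.11, -2.31, -1.57 and -1.25 from 5 to 120 min, with -0.68 in the self-hybridisation. MET16, of sulfate reduction, was at -0.83, -2.23, -1.89, -2.29 and -0.93. Both were below the pool throughout, MUP3 lowest at 10 min and MET16 lowest at 60 min. SAM3, MET22, HOM3 and SAM2, of methionine and S-adenosylmethionine metabolism and uptake, had steps of -1.32, -1.19, -1.10 and -1.04. With both columns scaled to the same spread, 4 of the 7 were no longer past 2-fold: MUP3 was at -0.91, MET16 at -0.98, MET22 at -0.90 and HOM3 at -0.71.

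Arginine genes were already low at 5 min. ARG3, ornithine carbamoyltransferase, was at -2.00, -3.65, -3.31, -1.89 and -0.30, and ARG4, argininosuccinate lyase, at -1.45, -2.81, -3.38, -1.31 and 0.58 from 5 to 120 min. In this list 13 of 14 steps were below 0, against 48.8% of all genes, with a median of -0.40. The steps of ARG3 and ARG4, -1.65 and -1.36, were the only ones past 2-fold. With both columns scaled to the same spread they were -0.86 and -0.77, so that neither was past 2-fold. Among 52 amino acid synthesis genes known to answer to Gcn4 the median was -0.27. Of these, 5 were 2-fold lower, against 2.34% of all genes, and none higher. They included TMT1 at -1.40, GLN1, glutamine synthetase, at -1.37, SER33 at -1.29 and HIS7 at -1.10, of which TMT1 and HIS7 were at -0.85 and -0.77 after that scaling. Purine synthesis had a median of -0.44 with 3 of 25 genes 2-fold lower, against 2.34% of all genes. MTD1, a folate enzyme that feeds this pathway, was at -0.43, -2.43, -1.52, -2.14 and -1.10, a step of -2.00. ADE2 and ADE4, of the purine pathway itself, had steps of -1.63 and -1.43. Nitrogen and amino acid uptake genes had a median of -0.32, and 3 of 32 were 2-fold lower, against 2.34% of all genes. These were DIP5 and AGP1, amino acid permeases, and PUT1, proline oxidase, with steps of -1.20, -1.02 and -1.15.

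Stress lists were nearer 0. The 40 genes of the Msn2 and Msn4 stress response and reserve carbohydrates had a median step of -0.15, and PAI3 and ALD3 were 2-fold lower at -1.24 and -1.04. PAI3 was at 1.17 and ALD3 at 0.12 in the self-hybridisation. Heat shock chaperones had a median of 0.21 with none of 29 past 2-fold. Proteasome genes had a median of 0.30, with 32 of 35 above 0, against 51.2% of all genes, and none past 2-fold. Among 20 immediate early and mRNA turnover genes the median was 0.06. The 3 that were 2-fold lower, against 2.34% of all genes, were YKR075C, MIG2 and MIG3, described above. Inositol and phospholipid genes had a median of 0.05, with URA7 alone of 18 past 2-fold, and none of 18 genes of folding in the endoplasmic reticulum, 19 of the phosphate regulon or 13 of NAD synthesis was past 2-fold. In autophagy ATG41 was at -4.61, -2.86, -2.42, -0.36 and 0.96 from 5 to 120 min. Its step of 1.75, or 2.83 with both columns scaled to the same spread, was between 2 low levels, and the other 35 autophagy genes were within 2-fold.

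The remaining genes of the 20 highest and 20 lowest steps had varied functions. ARA1, a D-arabinose dehydrogenase gene, had a step of 4.58, from -3.17 at 5 min to 1.41 at 10 min, with -0.10, -3.01 and 0.27 afterwards. Its ratio in the self-hybridisation was -6.64, the lowest deposited value, so that this feature was far from 0 where no difference in RNA exists. STE20, a protein kinase of the mating and filamentous pathways, was at 0.18, 3.19, 1.96, 0.12 and 0.93, with 0.63 in the self-hybridisation. URA7, a CTP synthase gene, was at -1.08 at 5 min and at 1.12, 1.56, 1.90 and 1.09 later, a step of 2.21. RTG3, a regulator of the retrograde response, and USO1, of vesicle transport, had steps of 2.11 and 1.83, and YGR161W-B, a Ty retrotransposon reading frame, one of 2.41. DST1, the elongation factor TFIIS, was at -2.25, -4.40, -3.90, -2.29 and -0.02, a step of -2.15, or -1.22 with both columns scaled to the same spread. PSF2, of the replicative helicase complex, MPF1 and MAL11, an alpha-glucoside transporter gene, had steps of -1.75, -1.71 and -1.66, and YML100W-A was among them at -2.48.

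The levels of the genes past 2-fold were then followed into the samples that the step did not use. The 124 higher genes had median log2 ratios of -0.41 at 5 min and 0.90 at 10 min, and of 0.65 at 20 min, 0.20 at 60 min and 0.59 at 120 min. At 20 min 108 of 124 were above the pool, at 60 min 60 of 109 and at 120 min 103 of 123. Over all genes with a step, 3017 of 6015 were above it at 20 min and 3129 of 5772 at 60 min. At 120 min it was 2942 of 6013. The 141 lower genes had medians of 0.37 and -0.87 at 5 and 10 min, and of -0.48, -0.33 and -0.25 afterwards, with 108 of 141 below the pool at 20 min, 75 of 120 at 60 min and 101 of 140 at 120 min. Over all genes with a step, 2998, 2643 and 3071 were below the pool at these times. By their medians, both sets past 2-fold were thus on the 10 min side of the pool in each later sample. They were nearest to it at 60 min for the higher and at 120 min for the lower genes. At 60 min the share of higher genes above the pool was near that of all genes, whose median there was 0.09. The self-hybridisation gave values for 45 of the 124 and 59 of the 141, shares of 36.3% and 41.8% against 58.2% of all genes, and the medians there were -0.34 and 0.09. Of the 45 genes 37 were below 0 in it, near the 5 min median of the whole set, and the part of this offset in the step was not tested.

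**Figure D5:**
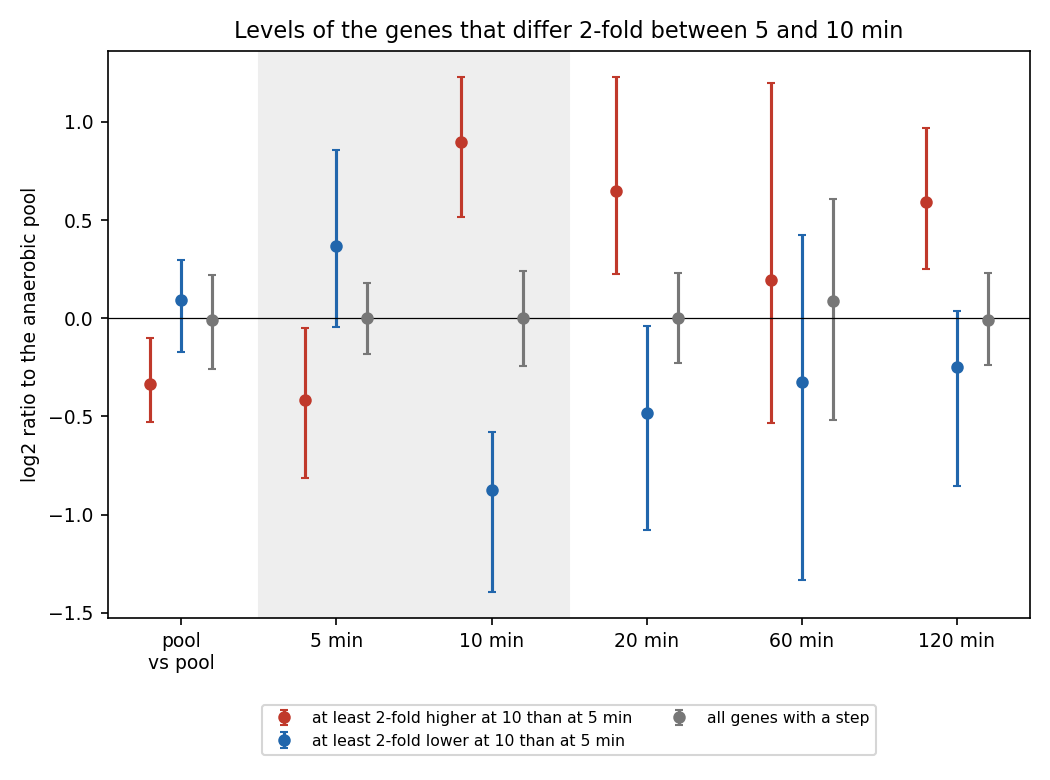
Log2 ratio to the anaerobic pool (vertical axis) in each sample (horizontal axis) for the genes at least 2-fold higher (red) or lower (blue) at 10 min than at 5 min and for all genes with a step (grey); points are medians over genes and bars the 25th and 75th percentiles. The shaded samples chose the genes. Red medians are above and blue medians below 0 at 20, 60 and 120 min, and the grey median at 60 min is 0.09.

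The step itself has no test, and the nearest contrast with residual degrees of freedom set the lone 5 min sample against the mean of the 4 later ones. The pool again cancels, the 5 min sample is assumed to vary like the later ones, and the error is the spread between later times and not between replicates. The contrast uses both columns of the step, so it gives no independent support for it. Over the 5771 genes measured in all 5 aerated samples, limma with Benjamini-Hochberg adjustment called 0 genes at an adjusted p under 0.05 (0.0%). The unadjusted p was under 0.05 for 157 genes, and the smallest adjusted p was 0.112. The 60 min sample, whose steps from 20 min were past 2-fold for 23.0% of genes, was then left out, and limma called 18 genes, 10 of them higher and 8 lower at 5 min. With all columns scaled to the same spread limma called 29, and with array weights, which gave the 60 min sample a weight of 0.162, it called 20. These 3 alternatives were the only ones with any call, and each other alternative called 0 genes. Genes called under all 3 were thus picked by outcome and are not a set of significant genes. They were TIR1, TIR2, TIR3, TIR4, DAN1, PAU3, PAU5, HES1, YKR075C, URA7, AI1, AI3 and 3 features with no symbol.

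Among these, the 5 min sample was higher than the later mean by 5.15 ± 0.65 (SE) for DAN1, 6.62 ± 1.01 for TIR1, 4.61 ± 0.51 for YKR075C, 3.03 ± 0.34 for TIR2 and 2.94 ± 0.37 for TIR4 on the log2 scale in limma with all 5 samples. CUP1-1, GPX2 and STE20, with some of the highest steps, returned toward the pool at 60 min, so a contrast with the later mean does not describe them.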

How the data were processed

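Values were deposited by the authors as normalized log ratios, 1 column a sample, with each dye-swap pair condensed per the series' design text. The log base of the deposited values is not stated. The authors deposited ratios that are read here as natural log from 1 value alone, the lowest, -4.6051702, of ARA1 in the self-hybridisation, which is the natural log of 0.01. Dividing by 0.6931 gave log2 ratios. How the arrays were normalized, corrected for background and filtered is not given in the sources used here, and with no intensities the signal behind each ratio is unknown. The number of arrays limits the precision.

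The platform table named 5754 of 6495 features by a single symbol, 0 by more and left 741 unnamed. All 5754 matched the R64 reference table and 0 were renamed. Features of 25 genes were averaged. Steps were computed in Python 3.11.15, and limma 3.58.1 in R 4.3.3 tested the 5 min sample against the 4 later ones, two-sided, after a check on simulated data. The flasks were separate and each time is 1 sample.

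The genes followed and the 41 gene lists, from textbook knowledge, were chosen with earlier results of these data known. Named are the 20 highest and 20 lowest steps, members of lists past 2-fold (up to 6 each way) or otherwise the 2 furthest from 0, all members of 5 oxygen-related lists, and genes that crossed the pool by 2-fold on each side. Lists are described by counts and medians with no set test, and 1 further list is not reported here. Alternatives were the log base, centring, spread, fold threshold, genes included, array weights and samples left out. A planned description of promoter motifs was not run, since no promoter sequences were used here.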

Additional observations from a re-analysis of the deposited data

Results flagged for a closer look

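In 12 genes or features the 5 min sample was at least 2-fold on 1 side of the anaerobic pool and the 10 min sample at least 2-fold on the other. With 1 sample a time these opposite directions were not tested. From above to below the pool, the steps on the log2 scale were -6.50 for TIR1, -5.73 for DAN1, -3.25 for TIR3, -3.01 for FIT3, -2.96 for TIR2, -2.94 for TIR4, -2.48 for YML100W-A and -3.09 for 1 feature with no symbol. From below to above they were 4.58 for ARA1, 2.96 for CYC1, 2.21 for URA7 and 6.10 for a further feature with no symbol, which was the highest step of all. ARA1 was also far below 0 in the self-hybridisation, at -6.64.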

How the results depend on the processing

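Read as log2 in place of natural log, the deposited values gave 42 genes at least 2-fold higher and 41 lower at 10 min, and a median step of -2.05 for the DAN and TIR list. A 3-fold threshold gave 36 and 28, and the 3485 genes measured in all 6 samples gave 44 and 58. This last setting drops genes without a self-hybridisation value. Such a value was present for 58.2% of all genes, but for 36.3% of the higher and 41.8% of the lower ones. With the 5 min ratio turned over, an alternative chosen after seeing the data, there were 291 higher and 349 lower genes. Centring, scaling both columns to the same spread, keeping genes measured in all 5 aerated samples or keeping genes with a symbol, the last also chosen after seeing the data, left both counts within 1.5 times. With the scaled spread, 21 named steps moved by over 0.337, the SD of all steps as estimated from their median absolute deviation, 12 fell below 2-fold and 3 passed it, which are given beside the genes. Signs changed only for values near 0: with the scaled spread, CTA1 went to -0.12, HAP2 to 0.02, HEM15 to 0.05, the histone median to 0.05 and the antioxidant median to -0.01, which was also -0.01 over genes in all 5 aerated samples, and over genes in all 6 samples the iron median went to 0.16 and that of heme synthesis to -0.01. The limma count for 5 min against the later samples, 0, became 18 without the 60 min sample, 29 with scaled spreads and 20 with array weights, lay between 0 and 18 when each later sample was left out in turn, and was 0 with centring or with values read as log2. The cause was not tested. No paired analysis was possible because each time has 1 sample. Signal over background is unknown here, so steps of dim features cannot be weighted.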

Other observations

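The genes in this paragraph were chosen after their values were seen. Both CTP synthase genes were past 2-fold, in opposite directions: URA7 had a step of 2.21 and URA8 of -1.31, from 0.82 at 5 min to -0.49 at 10 min. Among genes of S phase and bud emergence outside the cell cycle list, SMC3, of cohesin, had a step of 1.59, MCD1, also of cohesin, of 1.09, YOX1, a cell cycle repressor gene, of 1.32, and the Cdc42 effector genes GIC1 and GIC2 of 1.02 and 1.31. Each of these 5 was below the pool at 5 min and above it at 10 and 20 min. Thiamine genes THI11, THI12 and THI13, near-identical copies that an array may not separate, had steps of -1.36, -1.08 and -1.21, and THI11 was at -2.05 in the self-hybridisation. SSU1, a sulfite pump gene, was at -1.05 at 5 min and -2.50 at 10 min.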
